A study of Sus scrofa with 40 samples.

Results

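The comparison described here set kidney cortex that had gone through warm ischemia and then 6 h of cold storage (WI+CS6h-C) against cortex of control kidneys (Ctl-C). Its members were the 5 arrays labelled with each of these conditions, 10 of the 40 arrays of the series, and every array carried the RNA of 1 cortex sample. All kidneys came from Large White pigs aged 3 months that are described as independent brothers, so that the compared kidneys belonged to different animals. The Ctl-C kidneys had neither ischemia nor storage and were sampled at once. For WI+CS6h-C the right kidney was taken out with its vessels clamped and held warm in that state for 60 min, after which it was flushed and kept cold in University of Wisconsin solution for 6 h. No kidney was reperfused or transplanted before sampling, and the same 5 kidneys gave a further sample after 24 h of storage (WI+CS24h-C). Another cortex group had the clamping without storage (WI-C). Because the controls had neither step, the comparison joins the effects of clamping, flushing and storage. Whole pieces of cortex were used, in which fewer cells of a type and less RNA per cell cannot be told apart.

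An ischemic kidney loses its oxygen supply, and its ATP falls within minutes. Cooling slows the metabolism of the organ without stopping it, which is why kidneys from donors after circulatory death, the setting that this pig model mimics, are stored cold. Immediate early genes are transcribed from factors that already exist in the cell, heat shock genes encode chaperones that bind unfolded proteins, and the proximal tubule, the main cell type of the cortex, lives on fatty acid oxidation and carries out much of the drug metabolism of the kidney.

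Levels are given as log2 signal, that is the logarithm to base 2 of the background-subtracted fluorescence after quantile normalization over all 40 arrays, and a difference of 1 is a doubling. A log2 fold change is the WI+CS6h-C mean minus the Ctl-C mean, and SE is its standard error in the limma fit to the 20 cortex arrays. A gene was called, and is said here to have risen or fallen, when its Benjamini-Hochberg adjusted p was under 0.05 and its log2 fold change was at least 0.5 in size. The share of spots well above background, the measure of signal on an array, was 57.01% to 68.47% in WI+CS6h-C and 62.9% to 68.16% in Ctl-C. The mean difference of -3.78 percentage points had an exact two-sided permutation p of 0.238. WI+CS6h-C 5 stood apart from its group, with the lowest mean correlation to the other 4 arrays (0.9637, against 0.974 to 0.977). Its share of bright spots was also the lowest, at 57.01%, but WI+CS6h-C 3 was close to it at 57.23%. The calls that were lost without WI+CS6h-C 5 are named with the fits that leave out an array. With 5 arrays a group, the number of arrays limits the precision, and 4 slides carried an array of each group.

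Between the cold-stored and the control cortex, 585 identifiers rose and 860 fell, which together were 1445 of 35939, or 4.02% of those tested (1.63% higher and 2.39% lower). A gene can have several identifiers. Among the 7439 genes that carried a symbol, each taken by its brightest identifier, 207 rose (2.78%) and 134 fell (1.8%), so that 4.58% were called. The arrays of the groups did not overlap for 1878 identifiers (5.23%), and 920 (2.56%) were both called and free of overlap. The unadjusted p was under 0.05 for 7708 identifiers (21.4%). With quantile normalization within each group, 728 identifiers rose and 2334 fell, so that 23.8% of the calls were higher instead of 40.5%. The median log2 fold change was 0.05 over all identifiers and 0.11 over the genes with a symbol.

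**Figure D1:**
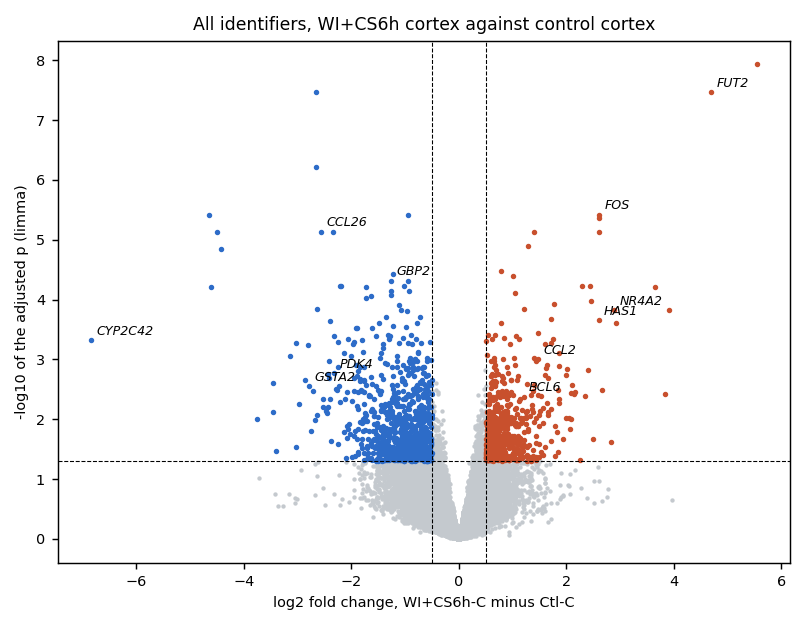
Each point is 1 of 35939 identifiers, with the log2 fold change (WI+CS6h-C minus Ctl-C) on the horizontal axis and -log10 of the limma adjusted p on the vertical axis, and dashed lines mark the limits of a call. The 585 identifiers called higher are red, the 860 called lower are blue, and FUT2 at 4.69 and CYP2C42 at -6.84 lie far out on either side, both at fitted values that rest on spots not well above background in 1 of the groups.

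The genes first considered were CCL2, BCL6, HAS1 and CCL26. CCL2, BCL6 and HAS1 rose and CCL26 fell, and the groups did not overlap for any of these 4 genes. CCL2 encodes MCP-1, the chemokine that draws monocytes into tissue. Its log2 signal was 7.45, 7.37, 7.52, 7.4 and 8.35 in Ctl-C 1 to 5 and 8.82, 9.61, 9.29, 8.72 and 9.04 in WI+CS6h-C 1 to 5. The highest control, Ctl-C 5, lay below the lowest stored sample, and the log2 fold change was 1.48 (SE 0.22, adjusted p = 0.000987). Within the 4 slides that carried both groups the difference was 1.30, 1.89, 0.69 and 2.25. Without overlap between the groups, each of these had to be above 0, so their sign is no further support.

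CCL2 was measured with 2 probes, whose first 30 bases are shown in lower case from 5′ to 3′ because their agreement makes CCL2 a firmly measured member.
CCL2 probe starting at base 370 of the transcript: cgagaatctgaagacaattcatttccttct
CCL2 probe starting at base 616 of the transcript: ggtccttgcaaggatggtgaacacaaaaac
The difference was 1.48 for both probes, with control means of 7.11 and 8.12.

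BCL6, a transcriptional repressor of lymphocytes and macrophages, had a log2 signal of 8.18, 8.01, 8.32, 8.04 and 8.26 in Ctl-C and of 9.41, 9.75, 9.59, 9.72 and 8.34 in WI+CS6h-C. It rose by 1.20 (SE 0.22, adjusted p = 0.00419), but the fifth stored sample was only just above the highest control. Without WI+CS6h-C 5 the log2 fold change was 1.46. The call did not hold when the 2 groups were fitted alone (adjusted p = 0.0507).

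HAS1 makes hyaluronan, a sugar polymer of the matrix. Its spot was not well above background on any Ctl-C array, where the log2 signal was 1.67, 0.68, 1.40, 0.47 and 1.73, and it was well above background on 4 of the 5 WI+CS6h-C arrays, at 3.55, 3.8, 4.8, 3.71 and 3.11. The gene was thus at least 3.08-fold higher after storage (adjusted p = 0.00022), a bound set by the dimmest spots still well above background. Such bounds, here and below, are approximate, because some spots brighter than these dimmest ones were still not well above background. The call was lost with another background correction and with the values the authors deposited, in which the log2 fold change was 0.14 and 0.49.

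CCL26 encodes a chemokine for eosinophils. The identifier is annotated as a chemokine ligand 26-like protein and was taken for CCL26 by that description. Its log2 signal was 6.14, 6.22, 6.13, 6.65 and 6.43 in Ctl-C and 4.23, 4.07, 3.18, 3.25 and 4.04 in WI+CS6h-C. Every stored sample was below every control by a wide margin, and the log2 fold change was -2.56 (SE 0.24, adjusted p = 7.37e-06). The fall was smaller with the other background correction (-0.59) and in the deposited values (-1.45), though called in both. Both chemokines kept their call with each of the 10 arrays left out in turn.

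**Figure D2:**
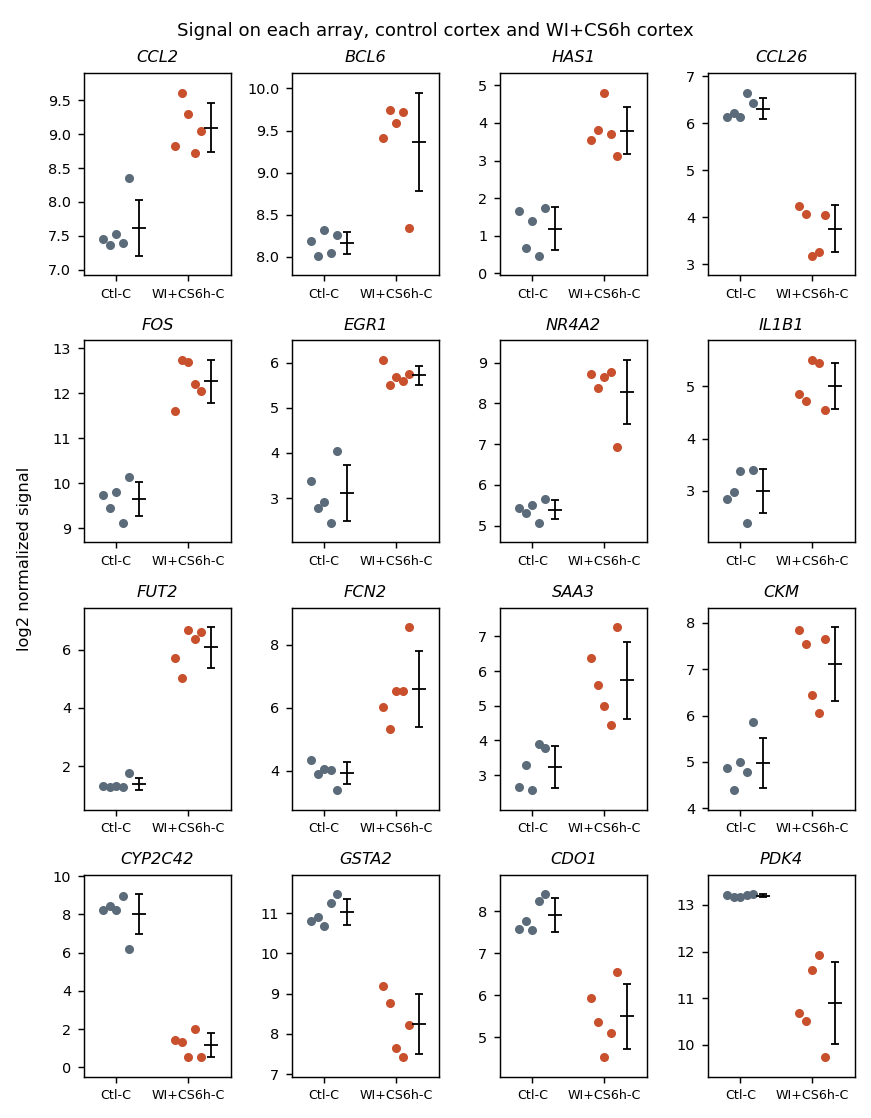
Log2 normalized signal of 16 genes on the 5 Ctl-C arrays (grey) and the 5 WI+CS6h-C arrays (red), with replicates 1 to 5 from left to right in each group and the mean ± SD beside them. The groups do not overlap in any panel, which the selection required of every gene but CCL2, BCL6, HAS1 and CCL26. For BCL6, WI+CS6h-C 5 lies close to the controls (8.34 against a highest control of 8.32).

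Apart from these, the largest fitted rises among genes with a symbol and without overlap were those of FUT2, NR4A2, FCN2, FOS, EGR1, SAA3, CKM, PYY and IL1B1, with HAS1 also within the 10 largest. HAS1 and PYY were not well above background in any control, so that their place in this order is not settled. FUT2, a fucosyltransferase that builds the H antigen on cell surfaces, had a log2 signal of 1.30, 1.28, 1.32, 1.27 and 1.77 in Ctl-C and of 5.70, 5.03, 6.67, 6.38 and 6.61 in WI+CS6h-C. The groups were far apart, and the fit over the mean of its probes gave 4.69 (SE 0.28, adjusted p = 3.38e-08), which is no measure of the size, since only 1 probe was well above background in the controls. The size depended on the probe, and the first 30 bases of its 3 probes are shown because the probes disagreed.
FUT2 probe starting at base 454 of the transcript: aggatcccctggcagaactaccacctgaac
FUT2 probe starting at base 1248 of the transcript: cagctacaagcaacaaagtcccaactaact
FUT2 probe starting at base 1957 of the transcript: cagttttgacaagatagccgtattggctag
The probe at base 454 was well above background in both groups and differed by 2.24. The other probes were not well above background on any control array, so that their signal was at least 20.7-fold (base 1248) and at least 13-fold (base 1957) higher after storage. The positions of the probes on the genome were not used here.

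Among the immediate early genes, FOS, a part of the AP-1 factor, had a log2 signal of 9.75, 9.45, 9.81, 9.12 and 10.13 in Ctl-C and of 11.61, 12.74, 12.70, 12.21 and 12.06 in WI+CS6h-C. EGR1, a zinc finger factor induced by growth and stress signals, was at 3.38, 2.77, 2.92, 2.45 and 4.05 in Ctl-C and at 6.06, 5.51, 5.68, 5.59 and 5.74 in WI+CS6h-C. The orphan nuclear receptor NR4A2 was at 5.43, 5.32, 5.51, 5.07 and 5.66 in Ctl-C and at 8.71, 8.37, 8.65, 8.78 and 6.92 in WI+CS6h-C. For FOS and EGR1 the stored samples lay close together far above the controls, whereas for NR4A2 the fifth stored sample was lower than the other 4. The log2 fold changes were 2.61 (SE 0.22, adjusted p = 3.81e-06) for FOS, 2.60 (SE 0.24, adjusted p = 7.37e-06) for EGR1 and 2.89 (SE 0.35, adjusted p = 0.000151) for NR4A2. For FOS 1 of 3 spots was marked as an outlier on WI+CS6h-C 3, and with centred probes, an alternative added after seeing the data, its log2 fold change was 2.53. With normexp, another background correction, EGR1 had 0.41 and was not called. A second identifier of FOS gave 2.62.

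The list of AP-1 factors and other immediate early genes had 19 measured members, of which 7 rose, 0 fell and 12 were not called, so that 36.8% were called against 4.58% of all genes with a symbol. The median log2 fold change was 0.53. Beside FOS, EGR1 and NR4A2, the risers were BTG2 (1.67), an antiproliferative gene, CYR61 (1.59), a matricellular growth signal, and the Krüppel-like factors KLF4 (0.88) and KLF6 (0.53). JUN, the partner of FOS, had 0.61 at its brightest identifier, which was not called, and 0.93 at another, which was (adjusted p = 0.0307). EGR3 (0.53), MYC (0.44) and IER3 (-0.37) were not called. For BTG2 the fifth stored sample, at 9.79, lay just above the highest control, at 9.69, and without it the log2 fold change was 1.92. With each of the 10 arrays left out in turn, 6 of the 7 kept their call, the exception being KLF6.

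Of 26 measured heat shock proteins and co-chaperones, 7 rose and 0 fell (26.9%), with a median log2 fold change of 0.40. HSPA8, the constitutive HSC70, was at 13.83, 13.63, 13.72, 13.70 and 13.82 in Ctl-C and at 14.18, 14.13, 14.32, 14.28 and 14.32 in WI+CS6h-C, a small rise of 0.50 (SE 0.07, adjusted p = 0.000485) without overlap, at the limit of a call, which it kept in 4 of the 10 fits that leave out an array. HSPH1, which recharges HSP70 with nucleotide, rose by 0.68 (SE 0.09, adjusted p = 0.000397). The co-chaperones DNAJA4 (0.76), CHORDC1 (0.67) and DNAJB1 (0.56) and the small chaperone CRYAB (0.66) rose as well. HSF2, a heat shock factor, had 0.26 and was not called.

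HSPA1A, an inducible HSP70, was called at 2.26 (SE 0.63, adjusted p = 0.0472), but this value was inflated by missing spots. One of its 2 probes, the dimmer one, was marked as an outlier and left out on WI+CS6h-C 1, 2 and 3, so that the mean there rested on the bright probe. With each probe first centred on its own mean, an alternative added after seeing the data, HSPA1A had 0.87 (adjusted p = 0.0286), and with the marked spots kept it had 0.78 (adjusted p = 0.0501). The bright probe had a mean of 9.67 in Ctl-C and 10.18 in WI+CS6h-C, and alone it was not called (0.51, adjusted p = 0.0861). Copies of HSP70 genes are alike in sequence, and their probes may share signal. Of the 7 calls in this list, DNAJA4, HSPH1 and CHORDC1 held with each array left out in turn, and scaling to the 75th percentile left 4 calls, normexp 2 and the 2 groups alone 3.

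IL1B1, an interleukin 1 beta gene of the pig, rose from 2.83, 2.98, 3.38, 2.38 and 3.40 in Ctl-C to 4.86, 4.72, 5.51, 5.45 and 4.54 in WI+CS6h-C, by 2.02 (SE 0.32, adjusted p = 0.00142). With normexp it had 0.24 and was not called. The pig has a close copy of this gene, and the probe may take up signal of both. SAA3, an acute phase protein, was at 2.65, 3.28, 2.57, 3.90 and 3.77 in Ctl-C and at 6.37, 5.60, 4.98, 4.46 and 7.27 in WI+CS6h-C. It rose by 2.50 (SE 0.59, adjusted p = 0.0211) with a wide spread, and the call was lost without WI+CS6h-C 5 (2.12, adjusted p = 0.0574) and in 3 more of the 10 fits that leave out an array. It was also lost with normexp, with the 2 groups alone (adjusted p = 0.0504) and with the share of bright spots as a covariate (adjusted p = 0.11).

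FCN2, a ficolin that starts the lectin pathway of complement, was at 4.34, 3.90, 4.04, 4.02 and 3.38 in Ctl-C and at 6.03, 5.32, 6.52, 6.55 and 8.57 in WI+CS6h-C. It rose by 2.66 (SE 0.47, adjusted p = 0.0033), and the highest value, of WI+CS6h-C 5, rested on the brighter of its 2 probes because the other spot was marked as an outlier. With centred probes the log2 fold change was 2.38, and the brighter probe, which alone was well above background on every control array, gave 1.88 (adjusted p = 0.00321). The same array had the highest signal of neutrophil markers: their sum, on the linear scale, was 133 to 177 in Ctl-C, 81.9 to 203 on the other 4 stored arrays and 1650 on WI+CS6h-C 5. Of the 7 measured neutrophil markers none was called and the defining marker MPO was not well above background in either group. Without that array FCN2 rose by 2.17 (adjusted p = 0.00303).

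Of 27 measured chemokines, CCL2 rose and CCL26 fell (7.41%, median log2 fold change 0.07). CXCL8, the neutrophil chemokine, had 0.84, and the interferon-induced CXCL10 had -0.997, and neither was called. Of 36 interleukins, TNF family members and receptors, IL1B1 and IL15 (0.90), which sustains NK and memory T cells, rose, whereas TNFSF10 (-0.80), the death ligand TRAIL, and SOCS2 (-0.64), an inhibitor of growth hormone signalling, fell (11.1%, median 0.03). With the slide as a fixed block IL15 was not called (adjusted p = 0.0595). TNF had -0.43 and IL6 had -0.38 without a call. Of 44 Toll-like receptors, danger signals and complement genes, FCN2 and TLR4 (0.83), the endotoxin receptor, rose and none fell (4.55%, median 0.07).

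Of 20 genes of the NF-kB pathway and its early targets, SELE, an adhesion molecule of activated endothelium, and CD83 (0.65), a marker of mature dendritic cells, were called (10%, median 0.13). NFKB1 (0.10) and RELA (0.01), the factors themselves, were not called, nor was NFKBIA (-0.44). SELE was well above background on no control array and on only 3 stored ones, and it had -0.18 in the deposited values. The brighter of its 2 probes was at least 1.89-fold higher, and the other was not well above background in either group. Neither SELE nor CD83 kept its call with every array left out, with normexp or with the 2 groups alone. Among interferon-stimulated genes, 4 of 35 fell and 0 rose (11.4%, median -0.24). GBP2, an interferon-induced GTPase, was at 9.50, 9.22, 9.45, 9.15 and 9.35 in Ctl-C and at 7.77, 8.28, 8.11, 8.45 and 7.75 in WI+CS6h-C. Every stored sample was lower, by 1.26 in the mean (SE 0.13, adjusted p = 4.82e-05). MX2, an antiviral GTPase, fell by 1.61 with 3 identifiers called, and the RNA sensors OAS1 and OAS2 fell by 1.08 and 0.88. The latter pair overlapped between the groups, and their calls did not hold with every array left out. The markers of T, B and NK cells had a summed signal of 818 to 1280 in Ctl-C and 620 to 935 in WI+CS6h-C, with 0 of 13 called, and the part of these cells in the fall was not tested.

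The largest fitted falls among genes with a symbol and without overlap were those of CYP2C42, GSTA2, CELA2A, CCL26, CDO1, PDK4, RBP4, CLEC1B, GNAT1 and ZBTB32, of which CYP2C42, CLEC1B and ZBTB32 were dim after storage and have no settled place in the order. CYP2C42, a drug-oxidising cytochrome P450, had a log2 signal of 8.23, 8.42, 8.23, 8.94 and 6.2 in Ctl-C, with Ctl-C 5 lower than the rest. In WI+CS6h-C it was at 1.42, 1.34, 0.53, 1.98 and 0.53 and was not well above background on any array. It was thus at least 39.8-fold lower after storage (adjusted p = 0.000481). GSTA2, an alpha class glutathione transferase, was at 10.80, 10.91, 10.69, 11.25 and 11.47 in Ctl-C and at 9.18, 8.77, 7.64, 7.42 and 8.21 in WI+CS6h-C, and fell by 2.78 (SE 0.48, adjusted p = 0.00281), with both of its probes lower by 2.65 and 2.91. Genes of these enzyme families are alike in sequence, so a probe may take up signal of a close relative.

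CDO1, which oxidises cysteine on the way to taurine, was at 7.57, 7.77, 7.56, 8.26 and 8.41 in Ctl-C and at 5.94, 5.36, 4.52, 5.09 and 6.56 in WI+CS6h-C. PDK4, the kinase that shuts off pyruvate dehydrogenase in favour of fatty acids, was at 13.21, 13.16, 13.18, 13.22 and 13.23 in Ctl-C and at 10.68, 10.51, 11.60, 11.92 and 9.73 in WI+CS6h-C. The controls of PDK4 were nearly equal, whereas the stored samples were spread over a wide range below them. CDO1 fell by 2.42 (SE 0.37, adjusted p = 0.00107) and PDK4 by 2.32 (SE 0.37, adjusted p = 0.00171), for which all 9 probes were lower by 2.06 to 2.53.

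CELA2A, a digestive elastase, fell by 2.65 (SE 0.54, adjusted p = 0.00839) and GNAT1, a transducin subunit of photoreceptors, by 1.84 (SE 0.29, adjusted p = 0.00132). RBP4, the retinol carrier of blood, fell by 2.11 (SE 0.58, adjusted p = 0.044), but its 3 probes gave -0.77, -2.60 and -2.95, and it kept its call in 2 of the 10 fits that leave out an array. CLEC1B, a receptor of platelets, and ZBTB32, a repressor in lymphocytes, were called lower with fitted differences of -2.08 (adjusted p = 0.0209) and -1.76 (adjusted p = 0.0373), but each was well above background on only 2 stored arrays, and they kept their calls in 6 and 3 of those fits. A second identifier of CLEC1B was not well above background in either group. RBP4, CLEC1B and ZBTB32 were not called with normexp, where CLEC1B had -0.12 and ZBTB32 -0.06, or in the deposited values.

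Of 39 genes of drug and xenobiotic metabolism, 3 fell and 1 rose (10.3%, median log2 fold change -0.23). The third that fell was CYP4A21 (-0.67), a P450 of fatty acid and bile acid hydroxylation. Its brightest probe differed by -0.11 and alone was not called (adjusted p = 0.406), whereas the other probes gave -0.73 to -0.99. The gene that rose was ABCC2 (0.68), an apical export pump, with a second identifier at 0.57. CYP2C49 (-2.67), CYP1A1 (-1.80) and CYP3A46 (-1.31) were lower in the mean but not called. Without WI+CS6h-C 5 the median of the list was -0.07 with the same counts, and with 75th percentile scaling it was -0.05. Of 42 genes of fatty acid oxidation and PPARA targets, PDK4, HADHA (-0.90), a subunit of the mitochondrial trifunctional protein, and HSD17B4 (-0.72), a peroxisomal oxidation enzyme, fell and none rose (7.14%, median -0.17). PPARA itself had 0.27 without a call. Without WI+CS6h-C 5 only PDK4 of these 3 was called.

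Of 39 genes of sugar, amino acid and organic acid metabolism, CDO1, HAO2 (-0.65), a hydroxyacid oxidase, and MTHFD1 (-0.59), of one-carbon metabolism, fell, and PIPOX (1.27), which breaks down pipecolic acid and sarcosine, rose (10.3%, median 0.03). Of these 4, only CDO1 kept its call with every array left out and with the 2 groups alone, and MTHFD1 and PIPOX kept theirs in 2 of the 10 fits that leave out an array. ARG2, the mitochondrial arginase, had -1.12 at its brightest identifier without a call and -3.13 at another (adjusted p = 0.000891). Of 33 proximal tubule transporters, SLC22A2, the cation transporter OCT2, rose by 0.72 (adjusted p = 0.00176) and none fell (3.03%, median 0.24). Its 3 probes gave 0.75, 1.1 and 0.31, and in the deposited values it had 0.31 and was not called (adjusted p = 0.082). The summed signal of 10 proximal tubule markers was 226000 to 239000 in Ctl-C and 165000 to 253000 in WI+CS6h-C, with the lowest value on WI+CS6h-C 5 and the other 4 stored arrays at 219000 or above. None of these 10 markers was called.

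**Figure D3:**
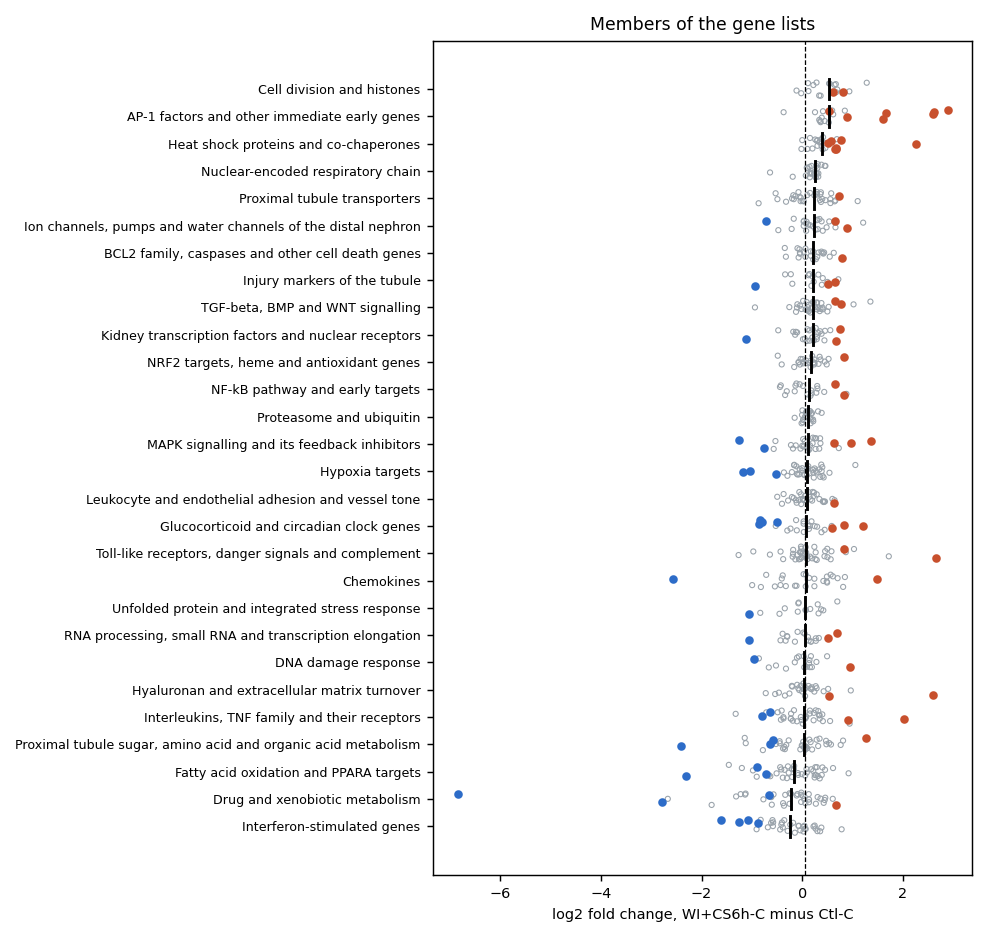
Log2 fold change (WI+CS6h-C minus Ctl-C, horizontal axis) of the measured members of 28 gene lists, ordered by median. Each circle is 1 gene at its brightest identifier, filled red where it rose, filled blue where it fell and open where not called; the black bar is the list median, and the dashed line is the median of all identifiers (0.05). Immediate early genes and heat shock genes have filled circles on the right only (7 each), and interferon-stimulated genes on the left only (4).

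Genes linked to glucocorticoids and the circadian clock split in both directions, with 3 of 24 higher and 4 lower (29.2%, median log2 fold change 0.07). BCL6, CEBPA (0.83), a factor of differentiated metabolism, and HSD11B2 (0.59), which inactivates cortisol, rose. KLF15 (-0.86), a glucocorticoid target, the clock repressors CIART (-0.84) and PER1 (-0.80), and CEBPD (-0.51) fell. KLF15 was at 12.40, 12.23, 12.48, 12.22 and 12.23 in Ctl-C and at 11.26, 11.28, 11.47, 11.64 and 11.58 in WI+CS6h-C, so that the groups stood well apart (SE 0.12, adjusted p = 0.000552). The receptor NR3C1 had 0.18 and was not called. BCL6, CEBPA, CIART and KLF15 kept their calls with every array left out.

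Of 29 genes of MAPK signalling and its feedback, 3 rose and 2 fell (17.2%, median 0.11). TGFA (1.37) and HBEGF (0.97), ligands of the EGF receptor, and the kinase MAP2K6 (0.63) rose, and the kinases MAP3K8 (-1.25) and MAP3K21 (-0.76) fell. A second identifier of MAP3K21 had 0.38 and one of TGFA 0.09, neither called. None of these 5 calls held with normexp, and those of HBEGF (adjusted p = 0.0676) and MAP2K6 (adjusted p = 0.0842) did not hold with the slide as a fixed block. Of 35 genes of TGF-beta, BMP and WNT signalling, ID2 (0.76), an inhibitor of helix-loop-helix factors, and SMAD6 (0.65), an inhibitor of BMP signals, rose (5.71%, median 0.21), and TGFB1 had -0.13 without a call.

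The hypoxia list had 0 higher and 3 lower of 37 (8.11%, median 0.09): STC2 (-1.18), a stanniocalcin, EDN1 (-1.04), which encodes endothelin, and CITED2 (-0.53), a brake on HIF. EDN1 was well above background on 1 stored array, so that its value is a fitted one. None of the 3 calls held with normexp, where STC2 had -0.24, EDN1 -0.05 and CITED2 -0.40. EDN1 and CITED2 also lost their calls with the 2 groups alone and in the deposited values. HIF1A (0.35), EPAS1 (-0.16), VEGFA (-0.00) and EPO (-0.30) were not called. Of 15 genes of the unfolded protein response, DDIT4 (-1.06), an inhibitor of mTOR, fell (6.67%, median 0.06). DDIT3, which encodes the factor CHOP, had 0.42 at its brightest identifier without a call and 0.65 at another, which was called (adjusted p = 0.0144). Of 27 NRF2 targets and antioxidant genes, HMOX1, heme oxygenase 1, rose by 0.83 (SE 0.18, adjusted p = 0.011; 3.7%, median 0.16). It was at 9.99, 10, 10.01, 9.97 and 10.05 in Ctl-C and at 11.29, 11.10, 10.79, 10.30 and 10.73 in WI+CS6h-C, with the controls in a narrow band below all stored samples. NFE2L2, which encodes NRF2, had 0.17 and was not called.

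Of 19 genes of the DNA damage response, PLK3 (0.94), a stress kinase, rose and GADD45A (-0.95), a growth arrest gene, fell (10.5%, median 0.04). Of 25 cell death genes TMEM14A (0.78), a mitochondrial membrane protein, rose (4%, median 0.22). Of 16 injury markers of the tubule, CRYAB and CDH6 (0.52), an embryonic cadherin of the proximal tubule, rose and ANXA3 (-0.94), an annexin, fell (18.8%, median 0.21), and LCN2, which encodes NGAL, had 0.50 without a call. Of 29 matrix genes HAS1 and ADAMTS1 (0.52), a matrix protease, rose (6.9%, median 0.04). Of 32 genes of adhesion and vessel tone ANGPT1 (0.63), which quiets the endothelium, rose (3.12%, median 0.09). Of these genes, PLK3 lost its call with normexp. GADD45A, TMEM14A, CRYAB, CDH6 and ADAMTS1 lost theirs with the 2 groups alone, and ANGPT1 with normexp, in the deposited values and with the slide as a fixed block.

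Of 27 kidney transcription factors, GATA3 (0.75) and TFAP2B (0.68), factors of the distal nephron, rose and NR1H4 (-1.13), the bile acid receptor FXR, fell (11.1%, median 0.21). GATA3 kept its call in 2 of the 10 fits that leave out an array and lost it with the slide as a fixed block. With the 2 groups alone neither GATA3 nor TFAP2B was called. Of 26 channels and pumps of the distal nephron, AQP6 (0.89), a vesicle aquaporin, and SCNN1G (0.65), a subunit of the sodium channel ENaC, rose and TRPM6 (-0.72), a magnesium channel, fell (median 0.24). None of these 3 calls held with every array left out, with the 2 groups alone or with the share of bright spots as a covariate. The summed signal of 8 markers of the loop of Henle, distal tubule and collecting duct, of which SCNN1G was called, was 13800 to 18500 in Ctl-C and 15500 to 20200 in WI+CS6h-C, and the part of these cells in the rises of GATA3, TFAP2B, AQP6 and SCNN1G was not tested. Of 19 genes of RNA processing and elongation, LEO1 (0.70) and CTR9 (0.51), subunits of the PAF1 complex, rose and the splicing factor SRSF5 (-1.07) fell (15.8%, median 0.05). CTR9 kept its call in 2 of the 10 fits that leave out an array and had 0.07 with normexp. Of 18 genes of cell division and histones, AURKB (0.82), a mitotic kinase, and H2AFZ (0.61), a histone variant, rose (11.1%), and the median of the list was 0.54. The brightest of the 3 AURKB probes differed by 0.18 and alone was not called (adjusted p = 0.271), whereas the dimmer ones gave 1.12 and 1.15, and H2AFZ kept its call in 3 of the 10 fits that leave out an array. None of 25 nuclear-encoded genes of the respiratory chain was called (median 0.25), and ATP5O, a subunit of ATP synthase, and NDUFAB1, the mitochondrial acyl carrier protein, had the largest differences, at 0.46 and -0.64. None of 24 genes of the proteasome and ubiquitin was called either (median 0.12), with PSME3, a proteasome activator, at 0.38 and PSMD14, a deubiquitinase of the lid, at 0.31.

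Markers of cells outside the nephron were looked at beside these results. CKM, the muscle creatine kinase, was at 4.86, 4.39, 4.99, 4.77 and 5.87 in Ctl-C and at 7.84, 7.54, 6.45, 6.06 and 7.66 in WI+CS6h-C. It rose by 2.14 (SE 0.39, adjusted p = 0.00386), and a second identifier gave 1.33. The summed signal of 10 muscle markers, CKM included, was 257 to 358 in Ctl-C and 419 to 652 in WI+CS6h-C. CKM was the one called marker of the 10, the muscle-defining MB and MYH2 were not well above background in either group, and ACTA1 had 0.41. PYY, a gut hormone, was not well above background in Ctl-C and was on all WI+CS6h-C arrays, which put it at least 3.17-fold higher (adjusted p = 0.00987), and this call was lost with normexp, in the deposited values and with the 2 groups alone (adjusted p = 0.0526). Of 11 fat cell markers LPL (1.06), a lipase of capillaries, was called higher and RBP4 lower, their sum was 3480 to 3830 in Ctl-C and 2930 to 3570 in WI+CS6h-C, and PLIN1 was not well above background. No marker of the lists of endothelium, glomerulus, fibroblasts, macrophages or red cells was called. The summed signal of the fibroblast list was 4390 to 5550 in Ctl-C and 5130 to 9250 in WI+CS6h-C, and that of the glomerulus list was 799 to 902 and 879 to 1170. That of the red cell list was 12 to 17.5 in Ctl-C and 9.68 to 42.9 in WI+CS6h-C, with 35.9 and 42.9 on WI+CS6h-C 3 and 5, and HBD was not well above background. The sums of the endothelium list, 6590 to 7190 and 5590 to 7030, and of the macrophage list, 7870 to 9540 and 6460 to 9170, overlapped. The part of these cells in the changes of other genes was not tested.

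The other cortex groups share their controls with this comparison, so the values are set side by side here and no overlap was computed. Against Ctl-C, 34 identifiers (0.0946%) were called in WI-C and 900 (2.5%) in WI+CS24h-C. For clamping alone, 6 h of storage and 24 h of storage, in this order, CCL2 had a log2 fold change of 0.46, 1.48 and 1.1, and CCL26 had -0.15, -2.56 and -2.67. FOS had 1.27, 2.61 and 2.55, and IL1B1 had 2.26, 2.02 and 2.23, each called in all 3 groups. FUT2, HAS1 and CYP2C42 are left out here because their spots were not well above background in some of the groups, which leaves no exact difference. The differences between the ischemic groups were not tested.

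At the corticomedullary junction (CMJ), the deeper layer next to the medulla, the same conditions gave 1148 calls of 35938 (3.19%). FOS rose there by 2.98, BCL6 by 1.33 and CCL2 by 1.08, and CCL26 fell by 3.15 and CDO1 by 3.61. The difference between the tissues, tested in limma as an interaction over all 40 arrays, was called for 0 of 35934 identifiers, with 1856 (5.17%) at an unadjusted p under 0.05. Cortex and CMJ samples of a condition came from the same kidneys, and this fit took all arrays as independent, so that a kidney effect shared by the tissues was not used. No gene is therefore given here as particular to the cortex.

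**Figure D4:**
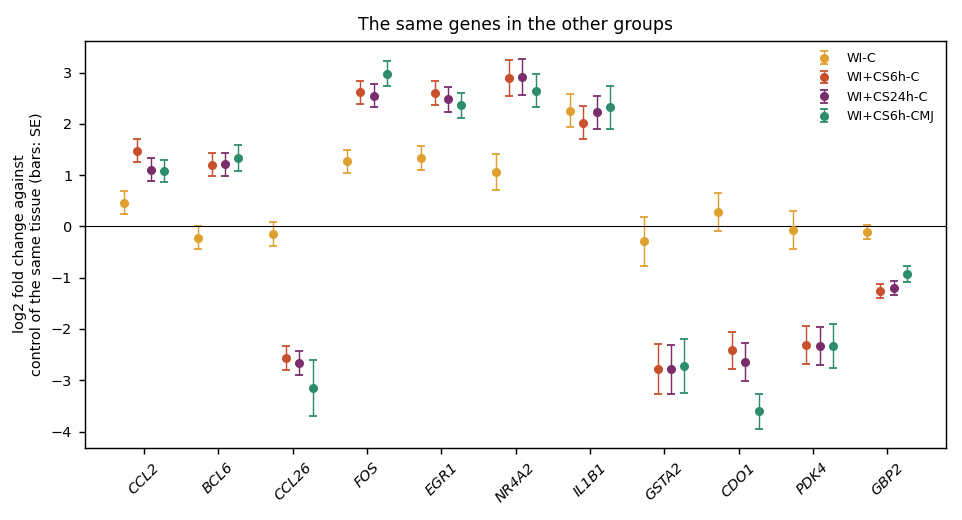
Log2 fold change ± SE of 11 genes against the control of the same tissue, for WI-C (yellow), WI+CS6h-C (red), WI+CS24h-C (purple) and WI+CS6h-CMJ (green). The 3 cortex groups share the Ctl-C arrays; CCL26 lies at -0.15 in WI-C and at -2.56 to -3.15 in the others, and IL1B1 lies at 2.02 to 2.33 in all 4.

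The number of calls depended on single arrays. With each of the 10 arrays left out in turn it was between 752 and 3129 (330 to 1353 higher and 419 to 1776 lower). It was 764, 815 and 752 without Ctl-C 1, 2 and 3, and 791 without WI+CS6h-C 1, while it was 3129 without WI+CS6h-C 4. Without WI+CS6h-C 5 it was 995, of which 424 were higher and 571 lower. Of the 87 genes that were selected by rule and called at their brightest identifier, which leaves out LPL, 50 kept their call in all 10 of these fits, among them 18 of the 22 markers and largest changes. The 4 of the 22 that did not were SAA3, RBP4, CLEC1B and ZBTB32. More of the 87 were lost without Ctl-C 1 (32), Ctl-C 2 (33), Ctl-C 3 (34), Ctl-C 4 (27) or WI+CS6h-C 1 (33) than without WI+CS6h-C 5 (26). CITED2, DNAJB1, MTHFD1 and CTR9, which are among the 26, were also lost without any 1 of the 5 controls. Without WI+CS6h-C 5 alone, 26 of the 87 were lost: SAA3, RBP4, CLEC1B, ZBTB32, SELE, CRYAB, DNAJB1, HSPA8, MAP2K6, ANGPT1, AQP6, SCNN1G, TRPM6, CDH6, TMEM14A, H2AFZ, CTR9, HSD11B2, PER1, CITED2, MTHFD1, HAO2, HADHA, HSD17B4, GADD45A and OAS1. Without that array the log2 fold change was 0.45 for H2AFZ, 0.52 for CRYAB, 0.39 for CTR9 and 0.68 for TMEM14A, in which it held the highest value. HSPA1A, PIPOX, TLR4, GATA3, CD83, KLF6, ADAMTS1, CEBPD, SOCS2, OAS2 and EDN1 lost their call without at least 1 of the other arrays. Of the 10 fits, HSPA1A, PIPOX, GATA3 and CD83 kept their call in 2, CEBPD in 3, and KLF6 and ADAMTS1 in 4. SOCS2 kept its call in 5, OAS2 in 6, TLR4 in 8 and EDN1 in 9. With the slide as a fixed block 23 of the 87 were lost, among them HBEGF and IL15, which held with every array left out. Second identifiers were called, where the brightest was not, for ACOX2 (-0.74), BNIP3L (-0.85), PROM1 (1.08) and CEBPG (-0.93 and 0.65 at 2 of them). A second identifier of SOCS2, well above background on every array, had -0.26 and was not called.

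**Figure D5:**
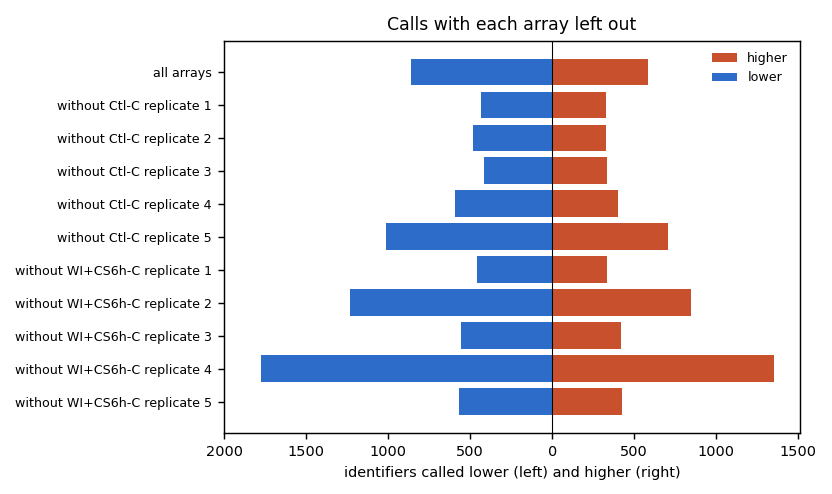
Number of identifiers called lower (blue, left) and higher (red, right) with all arrays and with each of the 10 arrays left out in turn, with bars starting at 0. The total is 1445 with all arrays, 752 without Ctl-C 3 and 3129 without WI+CS6h-C 4.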

How the data were processed

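RNA of pig kidney was hybridised to 1-colour Agilent arrays, 1 per sample. The authors deposited the scanner output of each array, whose intensity values were extracted with Agilent Feature Extraction 11.5.1.1 and are background-subtracted but not normalized between arrays. The authors also deposited a matrix of log2 values, made with limma in R 2.15.2, in which all 1286120 values of the 32153 identifiers with 1 spot equal, within 1e-08, the log2 median signal quantile normalized over the 40 arrays with 0 set to 1. It was used as an alternative.

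Here the log2 processed intensity of 43803 spots was quantile normalized over all 40 arrays, spots marked as outliers were set to missing, and spots with 1 systematic name were averaged, giving 35955 identifiers, of which 35939 could be fitted. Names came from the files, their descriptions and RefSeq tables (8925 identifiers with a symbol). limma 3.58.1 in R 4.3.3 with statmod 1.5.0 fitted 1 term per group to the 20 cortex arrays. The samples at 6 h and 24 h come from the same kidneys and enter this fit as independent. Without WI+CS24h-C there were 1336 calls, and 9 of the 87 named calls were lost. Groups follow the sample labels, and p-values measure the spread between these samples. An average over spots shifts where a dim or bright spot is missing, which touched 3 called genes named here (HSPA1A, FCN2 and FOS). The fit was tested on simulated data, where it called 50 of 100 changes of 1 and 88 of 100 changes of 2 on the log2 scale, with 8 false calls among 35939. Figures were drawn with matplotlib 3.10.9.

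Genes named are CCL2, BCL6, HAS1 and CCL26; the 10 largest rises and falls among called identifiers without overlap that are well above background on at least 4 arrays of the higher group and have a symbol; called members of 28 gene lists, or the 2 with the largest change where none was called; and the regulators the lists are named for. Second identifiers, LPL and members named without a call beyond these were chosen after their values were seen. A gene stands by its brightest identifier. Of 1233 entries in the lists, 841 matched. The members and lists were chosen with earlier results of these data known. Alternatives were other scalings, background corrections, summaries, blocks and sample sets, with each array left out in turn.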

Additional observations from a re-analysis of the deposited data

Results flagged for a closer look

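In 16 of 184 groups of values tested, 1 array lay far from the other 4 by Dixon's test, which chance does in about 1 group of 20. Of the controls, Ctl-C 5 was far from the rest in 7 genes: its log2 signal was 8.35 for CCL2 (next 7.52), 1.77 for FUT2 (next 1.32) and 11.49 for CRYAB (next 10.97), all highest, and 7.70 for RBP4 (next 8.50), 6.2 for CYP2C42 (next 8.23), 12.53 for HAO2 (next 13.01) and 5.98 for MAP3K21 (next 6.61), all lowest. Ctl-C 4 was lowest for OAS2 at 6.28 (next 7.02) and for MAP3K8 at 6.66 (next 6.93).

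WI+CS6h-C 5 was lowest for BCL6 at 8.34 (next 9.41), NR4A2 at 6.92 (next 8.37), BTG2 at 9.79 (next 10.83) and ID2 at 11.20 (next 11.64), and highest for STC2 at 5.40 (next 4.36) and PSMD14 at 11.38 (next 10.36). In each of these but PSMD14, which was not called, the array lay on the side of the controls. WI+CS6h-C 3 was highest for IL15 at 6.4 (next 5.9). Without WI+CS6h-C 5 the log2 fold changes were 1.46 for BCL6, 3.23 for NR4A2 and 1.92 for BTG2, and without Ctl-C 5 it was 1.66 for CCL2. The cause was not tested. No named gene differed between cortex and junction by the interaction test.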

How the results depend on the processing

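The direction of the 1445 called identifiers was kept for 1438 with normexp, 1442 in the deposited values and 1443 with the brightest probe, and for all of those tested in the other settings. These settings used the arrays on which the calls were made, so a kept direction is no independent support. For the named genes, the 2 groups alone and the replicate number as a block left the log2 fold change itself unchanged. The number of calls did not hold. It was 3062 with quantile normalization within each group (2334 lower), 759 in the deposited matrix (243 higher, 516 lower), 270 with normexp background correction (80 higher, 190 lower), 541 with the 2 groups fitted alone (230 higher, 311 lower) and 680 with the share of spots well above background as a covariate (255 higher, 425 lower). Within the 4 slides with both groups limma called 0 in either direction, with 7687 at an unadjusted p under 0.05. The fits of 2 groups and of 4 slides also used fewer samples. The cause of these differences was not tested. With each array left out in turn there were 752 to 3129 calls (330 to 1353 higher, 419 to 1776 lower). Without both WI+CS6h-C 4 and Ctl-C 3 there were 1495, and with probes centred before averaging 1444, both alternatives chosen after seeing the data. SELE reversed to -0.18 in the deposited values, and no other of the 87 called genes that were run reversed. Of the 87 named calls, normexp lost 43, the 2 groups alone 39 and the slide as a fixed block 23. The interaction of tissue and condition had 0 calls in every setting but those without 1 array, where it had 0 to 2.

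The replicate numbers did not pair the samples, since the same-number correlations of deviations were -0.17, 0.172, -0.0584, -0.0692 and 0.458, and 2 of the 5 numbers matched best with their own. With the number as a replicate block there were 1359 calls, 1215 of them shared with the 1445. HAS1, PYY and SELE were not well above background on any control array, which limits what can be said of their size.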
